A study of Homo sapiens with 4 samples.

Results

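SAA1-high cells are the cells of each library in which the gene SAA1 took the largest share of the unique molecular identifiers (UMIs, 1 per captured RNA molecule). They were chosen by the measured SAA1 share itself, as the top 10% of cells of each library with no cell at 0 SAA1 UMIs, among cells with at least 2000 genes and under 5% of UMIs from mitochondrial genes. They numbered 76 of 765 cells in shScr day 3, 58 of 581 in shAPC day 3, 94 of 942 in shScr day 7 and 92 of 924 in shAPC day 7, which makes 320 of 3212 cells. Cells of the same library with 0 SAA1 UMIs, 321, 344, 97 and 637 in the same order, served as the comparison (0-SAA1 cells). All values below follow this order of libraries unless they are named.

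The cells are HCEC 1CT, human colonic epithelial cells immortalised with TERT and CDK4, grown with EGF, hydrocortisone, insulin and serum. They carried either a knockdown of APC by shRNA (shAPC) or a scrambled control (shScr), were kept in puromycin and were harvested at day 3 or day 7. The labels call the virus retroviral and the methods lentiviral, and the 10x Genomics 3' kit is v2 in the labels and V3 in the methods. Each of the 4 groups is 1 library, so a difference between libraries has no replicate check, and differences within a library are compared over the 4 libraries.

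SAA1 encodes serum amyloid A1, a secreted acute phase protein made mainly by the liver in inflammation and also by epithelial and stromal cells exposed to cytokines such as IL1, TNF and IL6. Its transcription is known to be driven by NF-kB together with C/EBP factors and STAT3, and glucocorticoids are known to enhance it. NF-kB is a family of transcription factors held in the cytoplasm by inhibitors such as NFKBIA, and its targets include chemokines, adhesion molecules, complement genes and its own inhibitors.

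SAA1, which lies on chromosome 11 (GRCh38, chr11:18266260-18269977, plus strand), chose the cells, so its values are a description. Over all kept cells it stood at 120.04 CPM (SAA1 UMIs scaled to 1e6 UMIs of the sum) in shScr day 3, 43.3 in shAPC day 3, 381.0 in shScr day 7 and 81.3 in shAPC day 7. The shScr libraries were the highest at each day, and day 7 was above day 3 under both shRNAs. The log2 ratio of shAPC to shScr was -1.47 at day 3 and -2.23 at day 7, with 95% counting intervals of -1.56 to -1.39 and -2.30 to -2.16. The intervals cover counting error only. The log2 ratio of day 7 to day 3 was 1.67 in shScr and 0.91 in shAPC.

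The SAA1 UMIs sat in few cells. The top 10% of cells held 75.2%, 74.98%, 67.5% and 87.8% of all SAA1 UMIs of their library. The top cell of each library reached 4046, 1989, 18621 and 10926 CPM, against a median over kept cells of 15.8, 0, 109 and 0 CPM. The lowest SAA1-high cell stood at 222, 95.01, 719 and 101 CPM and the highest cell outside at 220.4, 93.3, 707 and 97.2 CPM, so the cells just inside and just outside the limit were alike. The limit itself thus differed between libraries. At the limit of shScr day 3 (222 CPM), 9.93%, 5.34%, 28.6% and 5.63% of cells would have been taken. Some SAA1-high cells rested on few molecules, since 2, 12, 0 and 24 of them had under 5 SAA1 UMIs.

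**Figure D1:**
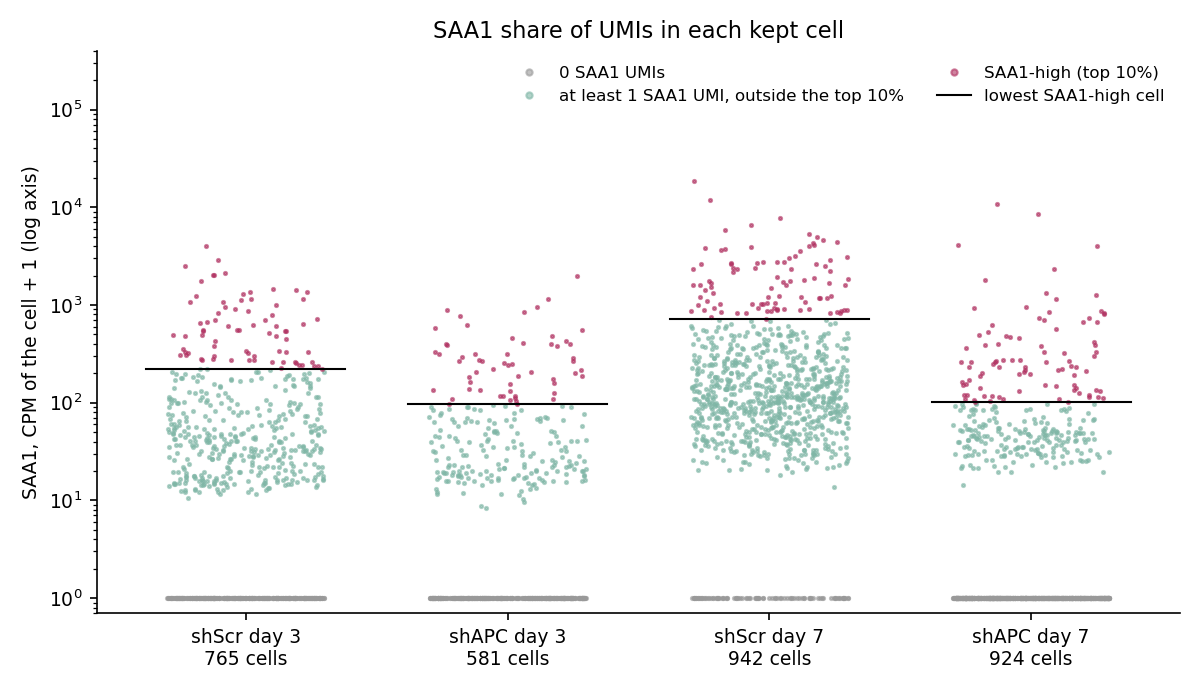
SAA1 in each kept cell (1 point per cell, vertical log axis, CPM of the cell + 1) for the 4 libraries, with cells at 0 SAA1 UMIs at the bottom and the lowest SAA1-high cell marked by a line. The line stands highest in shScr day 7 (719 CPM) and lowest in shAPC day 3 (95.01 CPM), and in each library the values run on across it without a gap.

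The matrices held 1471, 1047, 3652 and 3035 barcodes. SAA1-high cells were the deeper cells, with a median of 61116.5, 63064.5, 32162.5 and 28409 UMIs against 41839, 55413, 25316 and 27251 in 0-SAA1 cells. APC, the target of the knockdown, stood at 16.2 and 19.7 CPM in shScr and at 5.56 and 6.67 CPM in shAPC at days 3 and 7. Libraries of the same day shared 23 and 25 barcodes, and 1, 3, 0 and 1 SAA1-high cells carried a barcode found in another library. Barcodes with under 2000 genes, which were left out, held SAA1 at 146, 134, 1318 and 151 CPM, above the kept cells of every library. The part of free RNA in the SAA1 UMIs of single cells was not tested. The hepatocyte and endothelial markers were near 0 in SAA1-high cells. The 9 hepatocyte genes summed to 0.618 to 2.52 CPM, with albumin (ALB) at 0 in 3 libraries, and the 6 endothelial genes to 0.301 to 0.928 CPM. The 9 leukocyte genes summed to 15.8 to 37.9 CPM in SAA1-high and 21.4 to 30.1 CPM in 0-SAA1 cells, with SAA1-high above 0-SAA1 cells in shAPC day 3 (37.9 against 30.1 CPM). PTPRC and TYROBP were at 0 in all 4 sets of SAA1-high cells, and the part of the other leukocyte genes in the results was not tested. The labels name colonic epithelial cells, but the 12 simple epithelial genes summed to only 19.1 to 56.9 CPM in SAA1-high and 30.6 to 52.8 CPM in 0-SAA1 cells, and KRT20 and CDX2 were at 0 in all of them.

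To ask which other genes differed in SAA1-high cells, UMIs were summed over the SAA1-high and over the 0-SAA1 cells of each library, with SAA1 itself left out, and the 8 sums were compared with edgeR's quasi-likelihood test with the library as a block. Of 4559 genes tested, 527 were higher in SAA1-high cells (11.6%) and 346 lower (7.59%) at an adjusted p under 0.05, so that 19.1% were called. Of the 873 called genes, 795 had the same sign in all 4 libraries. Ranked by their smallest log2 ratio over the 4 libraries, SAA2, C3 and SOD2 led the genes that rose, and the small heat shock protein gene HSPB6 and CD248, of a cell surface glycoprotein, led those that fell. Against 0-SAA1 cells matched in depth, 412 genes were higher and 224 lower, and all of the 865 called genes that were tested kept their direction. In shScr day 7 this matching took 94 of the 97 0-SAA1 cells. They held 2482563 UMIs against 3239290 in SAA1-high cells, so depth was not matched in that library. With cells thinned to 5000 UMIs before choosing, 172 were higher and 61 lower, and 825 of the 853 called genes tested there kept their direction. The p-values measure the spread over 4 libraries of different shRNA and day.

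**Figure D2:**
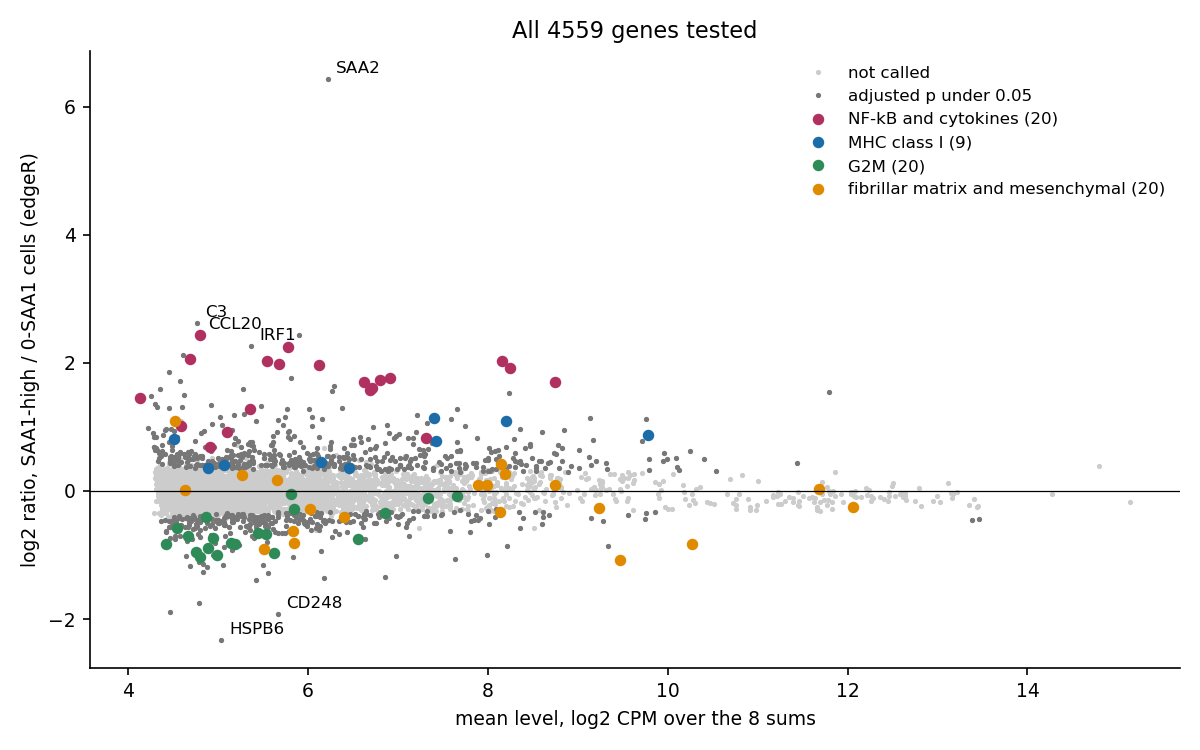
Log2 ratio of SAA1-high to 0-SAA1 cells (vertical, edgeR) against the mean level over the 8 sums (horizontal, log2 CPM) for the 4559 genes tested, with called genes in dark grey and 4 gene lists in colour. All 20 NF-kB and cytokine genes lie above 0, whereas 14 of the 20 G2M genes were called lower.

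SAA2, the neighbouring acute phase gene (chr11:18239223-18248668, minus strand), rose the most. It stood at 0.668, 0.254, 11.1 and 0.381 CPM in 0-SAA1 cells and at 70.9, 7.52, 386 and 151 CPM in SAA1-high cells. The SAA1-high sum was the higher in each library, although that of shAPC day 3 lay below the 0-SAA1 sum of shScr day 7. The edgeR log2 ratio was 6.43 (SE 0.36, adjusted p = 1.86e-07). As SAA2 was under 20 CPM in all 0-SAA1 sums, it was tested only through its SAA1-high sums. At least 1 SAA2 UMI was found in 78.9%, 24.1%, 92.6% and 40.2% of SAA1-high cells and in 2.80%, 1.16%, 26.8% and 1.10% of 0-SAA1 cells, so single cells of the classes overlapped. In shAPC day 7, a single cell gave 57.1% of the SAA2 UMIs of SAA1-high cells, and the log2 ratio of that library was 8.64 with it and 7.44 without it. SAA1 and SAA2 are near copies. Of the 815 windows of 90 bases in the SAA1 transcript of GENCODE, 11.9% also occur in SAA2, so part of the reads cannot be told apart.

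Of the 21 acute phase and complement genes listed, 4 passed the level filter and 3 of them rose, against 11.6% of all genes tested. C3, the central component of complement, had 5.12, 10.7, 6.34 and 10.4 CPM in 0-SAA1 cells and 40.6, 62.6, 66.5 and 43.98 CPM in SAA1-high cells (log2 ratio 2.62, SE 0.18, adjusted p = 1.22e-06, edgeR). Every set of SAA1-high cells lay above every set of 0-SAA1 cells. C3 too was under 20 CPM in all 0-SAA1 sums and was tested only through its SAA1-high sums. As SAA2 and C3 entered the test because they rose, the count of 3 of 4 is a description. C1S, a protease of the classical complement pathway, rose by 1.19 on the log2 scale. PTX3, a pentraxin of the innate response, gave a log2 ratio of 0.04 (SE 0.13). The genes of liver acute phase proteins such as SERPINA1 and SERPINA3 had at most 3 UMIs in any class of SAA1-high or 0-SAA1 cells. The label of an acute phase state thus rested on SAA1, SAA2 and complement genes.

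All 20 of the 26 NF-kB and cytokine genes that passed the level filter rose, against 11.6% of all genes tested. Their median log2 ratio was 1.72, and that of all genes tested was -0.004. Of the 20, 18 were positive in all 4 libraries, against 18.8% of all genes. The exceptions were NFKB1, the precursor of a subunit of NF-kB, with a log2 ratio of CPM of -0.12 in shScr day 3, and CSF3, of a growth factor of granulocytes, which rose by 0.92 over all 4 libraries and was level in shScr day 7. The level filter counts the SAA1-high sums, so genes low in 0-SAA1 cells, such as CCL20, were tested only because they rose. Since the cells were chosen and the list drawn up with earlier results known, these counts describe the libraries.

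Among the chemokine genes, CXCL8, which attracts neutrophils, stood at 92.2, 118, 137 and 153 CPM in 0-SAA1 cells and at 276, 717, 626 and 386 CPM in SAA1-high cells (log2 ratio 1.92, SE 0.17, adjusted p = 7.93e-06, edgeR). CXCL1, a chemokine of the same receptor, had 132, 184, 246 and 246 CPM in 0-SAA1 and 384, 949.5, 711 and 656 CPM in SAA1-high cells, a log2 ratio of 1.71. In both genes the SAA1-high cells of each library lay above the 0-SAA1 cells of all 4. CXCL5 and CXCL6 rose by 1.97 and 1.98, and CCL2, which attracts monocytes, by 1.73. CCL20, the ligand of CCR6, had 8.84, 8.63, 16.2 and 5.98 CPM in 0-SAA1 and 26.9, 131, 33.4 and 31.4 CPM in SAA1-high cells. Its rise was largest in shAPC day 3. CXCL1, CXCL2 and CXCL3 are close copies of each other, and reads that match several of them may be lost or split by the counting.

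SOD2, the mitochondrial superoxide dismutase and a known NF-kB target, varied least between libraries among the 20 genes. It had 120.5, 115, 129 and 83.0 CPM in 0-SAA1 and 514, 440.3, 557 and 336 CPM in SAA1-high cells, and the log2 ratios of the single libraries spanned only 1.94 to 2.11. The edgeR log2 ratio was 2.03 (SE 0.11, adjusted p = 1.42e-07). ICAM1, an adhesion molecule for leukocytes, had 21.0, 25.03, 17.8 and 11.9 CPM in 0-SAA1 and 63.1, 233, 65.0 and 50.8 CPM in SAA1-high cells, with a log2 ratio of 2.25. VCAM1, another adhesion molecule, rose by 2.07.

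The inhibitors of the pathway rose with its targets. NFKBIA, which retains NF-kB in the cytoplasm, had 43.4, 50.7, 61.4 and 42.7 CPM in 0-SAA1 and 88.1, 355, 153 and 92.3 CPM in SAA1-high cells (log2 ratio 1.58, SE 0.22, adjusted p = 0.000351, edgeR). TNFAIP3, a ubiquitin-editing enzyme that shuts the pathway off, rose by 1.77, and the subunit genes NFKB2 and RELB by 1.45 and 1.02. IL6 did not pass the level filter and was not tested. Its CPM were 1.56, 3.40, 1.19 and 2.01 in 0-SAA1 cells and 5.74, 44.8, 22.3 and 16.2 in SAA1-high cells.

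**Figure D3:**
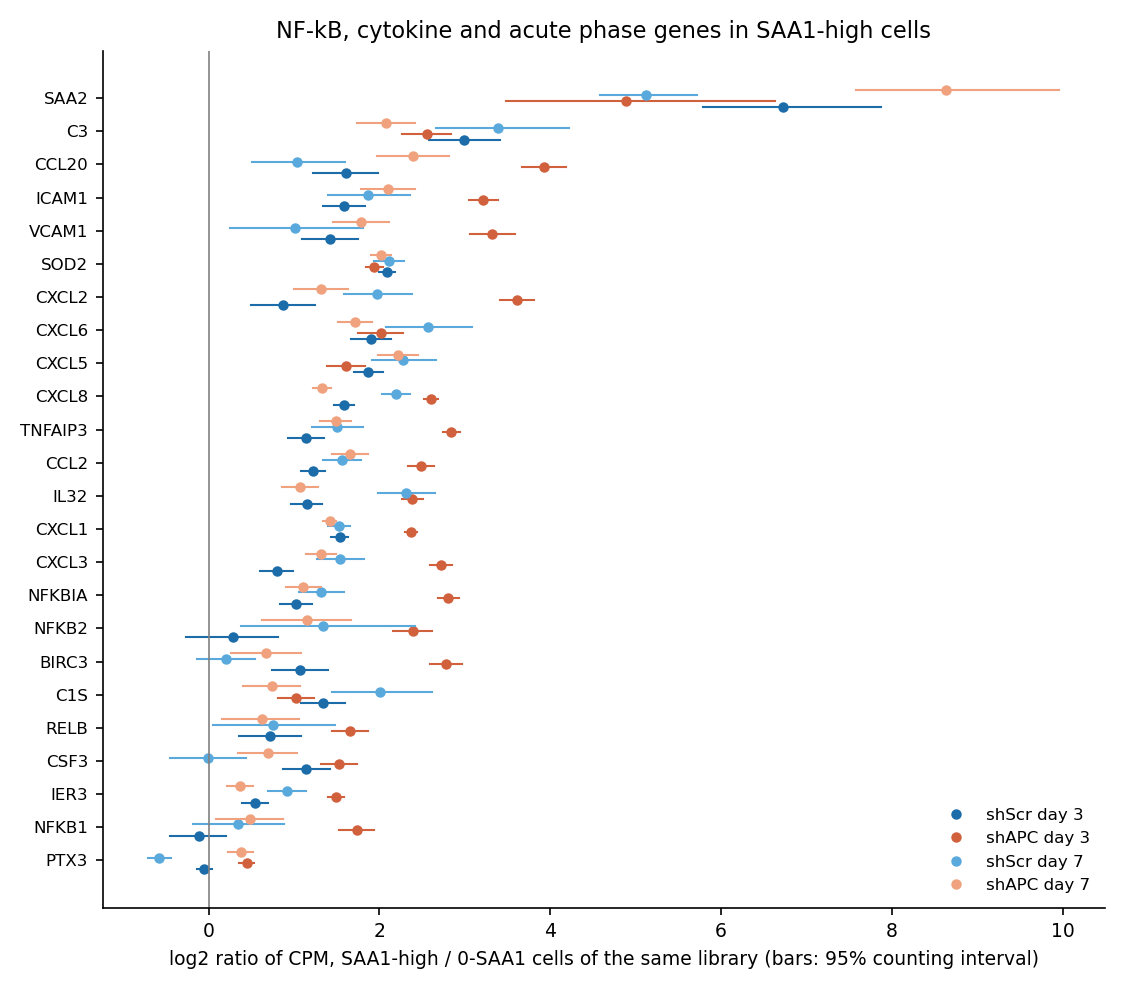
Log2 ratio of CPM of SAA1-high to 0-SAA1 cells in each library (points, with 95% counting intervals as bars) for the 20 NF-kB and cytokine genes and the 4 acute phase genes tested. The points of SOD2 span 1.94 to 2.11, and in shAPC day 3 many NF-kB genes lie to the right of the other 3 libraries.

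A shift of the NF-kB genes could sit in a few cells or be spread over them. With every cell thinned to 5000 UMIs, the 20 genes together gave a median of 2, 3, 3 and 2 UMIs per 0-SAA1 cell and of 12, 11, 11 and 8 UMIs per SAA1-high cell. The 90th percentile of 0-SAA1 cells was passed by 53.9%, 44.8%, 39.4% and 31.5% of SAA1-high cells. Between 9.21% and 19.6% of SAA1-high cells were at or under the median of 0-SAA1 cells, so the classes overlapped in single cells.

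Most of the promoters of these genes share a short sequence. The upstream 120 bases of 8 of them, from RefSeq (GRCh38.p14), are shown 5' to 3' on the strand of the gene. All 8 genes rose, and the 8 promoters are among those with a match to a kappaB motif, which is in capitals. That motif was 3 G, any 2 bases, 3 T and 2 C, on either strand. CXCL8 holds no match to it, and its capitals mark the shorter GGAATTTCC, which can overlap the longer motif. ICAM1, which rose by 2.25, held neither motif in its 120 bases and is not shown. Within 250 bases upstream it held the shorter one.
CXCL1 (chr4:73869273-73869392, plus strand): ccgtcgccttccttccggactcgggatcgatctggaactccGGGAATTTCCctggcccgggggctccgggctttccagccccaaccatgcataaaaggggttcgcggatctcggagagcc
CXCL2 (chr4:74099196-74099315, minus strand): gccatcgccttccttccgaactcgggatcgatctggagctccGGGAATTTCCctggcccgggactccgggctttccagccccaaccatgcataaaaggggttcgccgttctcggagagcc
CXCL5 (chr4:73998678-73998797, minus strand): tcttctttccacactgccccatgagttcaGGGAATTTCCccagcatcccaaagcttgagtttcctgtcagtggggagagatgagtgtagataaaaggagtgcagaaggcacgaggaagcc
CXCL6 (chr4:73836558-73836677, plus strand): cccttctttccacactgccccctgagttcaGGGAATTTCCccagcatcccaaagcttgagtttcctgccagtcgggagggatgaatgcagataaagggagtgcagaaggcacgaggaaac
CXCL8 (chr4:73740449-73740568, plus strand): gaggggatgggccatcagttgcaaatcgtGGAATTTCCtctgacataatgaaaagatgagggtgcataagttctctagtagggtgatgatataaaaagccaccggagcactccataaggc
NFKBIA (chr14:35404750-35404869, minus strand): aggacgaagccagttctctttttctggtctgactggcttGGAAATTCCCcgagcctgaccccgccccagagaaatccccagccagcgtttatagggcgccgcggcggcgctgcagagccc
TNFAIP3 (chr6:137867139-137867258, plus strand): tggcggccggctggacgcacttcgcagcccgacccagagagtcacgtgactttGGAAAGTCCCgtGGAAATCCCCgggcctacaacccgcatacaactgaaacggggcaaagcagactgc
CCL20 (chr2:227813722-227813841, plus strand): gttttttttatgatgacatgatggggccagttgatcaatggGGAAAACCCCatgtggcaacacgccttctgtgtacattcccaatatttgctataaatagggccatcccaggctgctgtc
TNFAIP3 held 2 matches, and the other 6 of the longer motif 1 each within these bases. Within 250 bases upstream, the longer motif was found in 473 of 27305 promoters (1.73%), in 2.15% of the promoters of genes tested, in 24 of 418 promoters of the genes called higher (5.74%) and in 3 of 271 of those called lower (1.11%). Among the NF-kB and cytokine genes called higher, 11 of the 16 with a sequence held it, and 9 of the 16 held the shorter one, against 0.428% of all promoters. These 11 are among the 24 of the genes called higher. The share of 5.74% thus rests in large part on a list picked for its tie to NF-kB. The matches are a description of the letters, not of binding.

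Genes of antigen presentation by MHC class I rose as well. Of 9 tested, 8 rose against 11.6% of all genes, with a median log2 ratio of 0.78, and all 9 were positive in all 4 libraries. HLA-B had 74.9, 236, 61.8 and 67.7 CPM in 0-SAA1 and 154, 517, 191 and 121 CPM in SAA1-high cells (log2 ratio 1.13, SE 0.13, adjusted p = 7.8e-05, edgeR). The 0-SAA1 cells of shAPC day 3 lay above the SAA1-high cells of the other 3 libraries, so the classes separated only within a library. B2M, the shared light chain, rose by 0.88. The HLA genes are near copies, and reads may be split among them.

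CD63 and IGFBP6, which had been named as markers of these cells, were tested like any other gene. CD63, a tetraspanin of lysosomes and late endosomes, had 790.2, 591, 623 and 437 CPM in 0-SAA1 and 1143, 949, 1431 and 739 CPM in SAA1-high cells (log2 ratio 0.78, SE 0.12, adjusted p = 0.000672, edgeR). The SAA1-high cells of shAPC day 7 lay below the 0-SAA1 cells of shScr day 3. IGFBP6, a secreted binding protein for IGF2, had 337, 489, 276 and 198 CPM in 0-SAA1 and 446, 568, 449 and 238 CPM in SAA1-high cells, and its rise of 0.38 was small (SE 0.12, adjusted p = 0.0335, edgeR). It was called under 16 of the 22 other settings tried. Of the 5 IGF binding protein genes tested, 4 rose against 11.6% of all genes, and IGFBP7 (1.14) and IGFBP3 (1.03) rose more than IGFBP6.

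The lysosome list, which holds CD63, had 9 of 18 genes higher and none lower, against 11.6% and 7.59% of all genes, with a median of 0.38. The median in the single libraries was 0.11, 0.23, 0.76 and 0.26, largest in shScr day 7. The 9 included the cathepsin genes CTSB, CTSD, CTSK, CTSL and CTSZ, and GRN, the gene of progranulin, which rose by 0.75. In shScr day 3, CTSK and CTSL were level, with log2 ratios of 0.02 and -0.03. Of the 6 tetraspanin genes tested, CD9 and CD82 rose. Of 10 antioxidant genes, 7 rose against 11.6% of all genes, with the peroxiredoxin genes PRDX1, PRDX2, PRDX5 and PRDX6 among them, and the median was 0.50. CYBA, a subunit of the NADPH oxidases that make superoxide, had 149, 195, 128 and 143 CPM in 0-SAA1 and 361, 589.9, 565 and 327 CPM in SAA1-high cells, a log2 ratio of 1.53.

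Other lists are read against the 11.6% of all genes called higher and the 7.59% called lower. Of 7 genes of IL6 and IL1 signalling, only CEBPB was called, with a rise of 0.66, a share near that of all genes. It codes for a C/EBP factor known to act on SAA genes. Of 9 glucocorticoid response genes, DUSP1, MT1X and ERRFI1 rose and FKBP5 fell by 0.41. Of 3 Wnt target genes tested, DKK1, which encodes a secreted Wnt inhibitor, rose by 0.58. JUNB rose and ATF4 fell among 9 stress genes. Of 17 genes of chaperones and secretion in the endoplasmic reticulum, 4 rose by 0.34 to 0.55. Outside the lists, MAP2, of a microtubule-associated protein, rose by 1.64, LINC02015 by 1.86 and the metallothionein gene MT1G by 2.43. LINC02015 was under 20 CPM in all 0-SAA1 sums and was tested only through its SAA1-high sums. In shAPC day 3, a single cell gave 73.9% of the MT1G UMIs of SAA1-high cells.

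HSPB6 fell the most. It had 55.9, 47.3, 37.6 and 51.9 CPM in 0-SAA1 and 10.8, 8.13, 5.57 and 14.8 CPM in SAA1-high cells (log2 ratio -2.32, SE 0.15, adjusted p = 8.88e-07, edgeR). CD248, also called endosialin, had 74.1, 94.5, 43.96 and 82.3 CPM in 0-SAA1 and 19.7, 20.5, 16.1 and 20.5 CPM in SAA1-high cells, a log2 ratio of -1.93. In both genes every set of SAA1-high cells lay below every set of 0-SAA1 cells. SFRP1, a secreted inhibitor of Wnt ligands, fell by 1.35, and PLAT, the tissue plasminogen activator, fell by 1.89. HSPB6 and PLAT were under 20 CPM in all SAA1-high sums and were tested only through their 0-SAA1 sums.

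Of the 20 matrix and mesenchymal genes tested, 7 fell, against 7.59% of all genes, and 1 rose (EFEMP1, of fibulin 3, by 1.09). COL1A2, of fibrillar collagen I, had 792, 993, 689 and 1324 CPM in 0-SAA1 and 414, 354, 389 and 641 CPM in SAA1-high cells (log2 ratio -1.08, SE 0.13, adjusted p = 0.000145, edgeR). COL1A1 fell by 0.82, and COL3A1 by 0.81 with 35.6 CPM in 0-SAA1 and 34.3 CPM in SAA1-high cells of shScr day 7, where the classes were alike. The summed list was lower in SAA1-high cells by little, from 14489.5, 14478.5, 11022.5 and 12772 to 12584, 10039, 11268 and 11500.4 CPM, and in shScr day 7 it was higher. The nuclear RNAs MALAT1, MEG3 and KCNQ1OT1 fell, 3 of 4 tested, by 0.46, 0.42 and 1.19.

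Summed over cells, many cell cycle genes were lower in SAA1-high cells. Of 20 G2M genes tested 14 fell, against 7.59% of all genes, and none rose. All 14 but CDC20 were negative in the 4 libraries. The median of the list over all 4 was -0.72 and in the single libraries -0.84, -0.20, -1.30 and -0.36. With every cell thinned, the 20 G2M genes together gave a median of 3, 4, 5 and 2 UMIs per 0-SAA1 cell. The median SAA1-high cell had 2, 5, 3 and 3 UMIs, lower in both shScr and higher in both shAPC libraries. In 73.7%, 44.8%, 80.9% and 41.3% of SAA1-high cells the count was at or under the median of 0-SAA1 cells. Under shAPC the fall of the sums was thus not seen in the median cell. MKI67, a marker of cycling cells, had 32.1, 34.3, 47.5 and 26.5 CPM in 0-SAA1 and 16.5, 21.1, 12.1 and 20.5 CPM in SAA1-high cells (log2 ratio -0.96, SE 0.19, adjusted p = 0.00392, edgeR). Of 7 S phase genes, TYMS, RRM1 and RRM2 fell. CDKN1A, the CDK inhibitor p21, had 491, 599, 435 and 627 CPM in 0-SAA1 and 572, 859, 639.6 and 879 CPM in SAA1-high cells, a rise of 0.44. It is 1 of 8 tested genes of CDK inhibitors and arrest, of which 4 rose against 11.6% of all genes (median 0.53). The others were GADD45A, GADD45B and GDF15, with rises of 0.83, 0.88 and 0.95 over all 4 libraries and log2 ratios under 0 in shScr day 3. With cells scored G1 alone, 439 genes were higher and 263 lower.

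The share of cells scored S or G2M at 5000 UMIs per cell was 24.9%, 25.1%, 40.2% and 20.9% in 0-SAA1 and 9.21%, 20.7%, 14.9% and 18.5% in SAA1-high cells. The share was lower in SAA1-high cells in all 4 libraries, by 11.95 percentage points on average (difference -11.95) (SD 10.7, n = 4). The fall was larger in both shScr libraries. The 0-SAA1 cells were a different part of each library, so this contrast by shRNA cannot be told apart from how they were drawn. The exact permutation test (two-sided, signs flipped over 4 libraries) gave p = 0.125, which is the smallest p that 4 libraries allow, so the design cannot reach 0.05. Against 0-SAA1 cells matched in depth, the difference was 0 in shAPC day 3 and -12.1 points on average (exact permutation p = 0.25, n = 4). In shScr day 7 nearly all 0-SAA1 cells were taken, so depth was not matched in that library. The 95% intervals of the classes overlapped in both shAPC libraries. These intervals cover the sampling of cells within 1 library only and do not test a difference by shRNA.

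**Figure D4:**
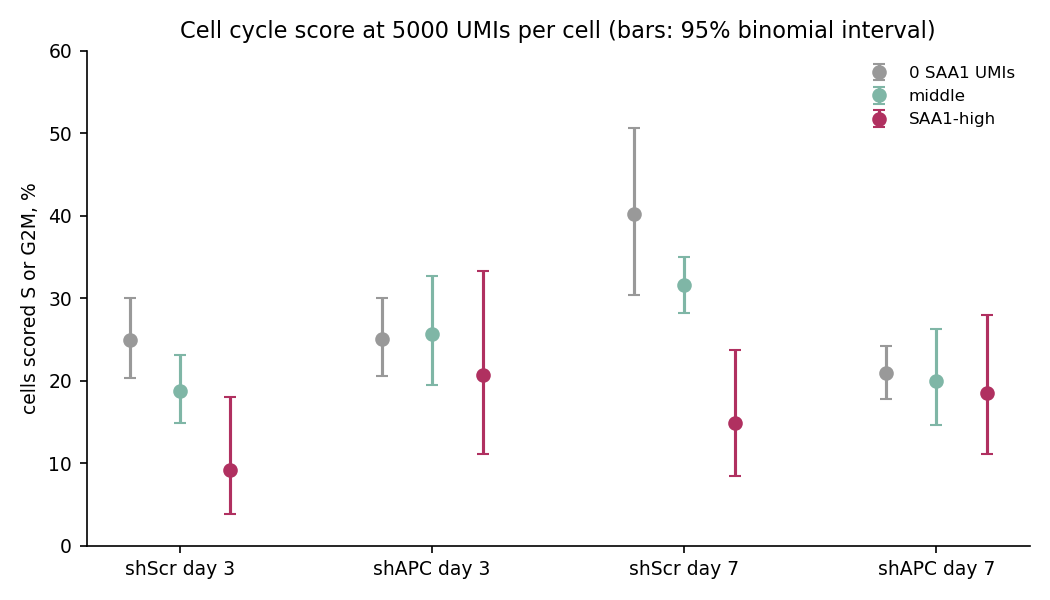
Percent of cells scored S or G2M after thinning to 5000 UMIs (points, with exact binomial 95% intervals as bars) in 0-SAA1, middle and SAA1-high cells of each library. In shScr day 7 the share runs from 40.2% in 0-SAA1 to 14.9% in SAA1-high cells, whereas in shAPC day 7 it runs from 20.9% to 18.5%.

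The middle cells, with at least 1 SAA1 UMI but outside the top 10%, took no part in the test. Of the 20 NF-kB and cytokine genes, 14 were ordered upward in CPM from 0-SAA1 over middle to SAA1-high cells in all 4 libraries and 17 in at least 3. CXCL8 had 203, 326, 246 and 165 CPM in middle cells, between the other classes in each library. HSPB6 had 28.6, 22.4, 24.3 and 24.2 CPM there, also between them. Of the 9 MHC class I genes 5 were ordered upward in all 4 libraries, and of the 20 G2M genes 8 were ordered downward. The order was counted for named genes only, so no share over all genes stands beside these counts. Most of these genes were already called between the outer classes, so the counts are a description. IGFBP6 was not graded, with 289, 417, 287 and 185 CPM in middle cells, under the 0-SAA1 cells in 3 libraries. CD63 was under them in 2 libraries, with 685 and 395 CPM in shScr day 3 and shAPC day 7.

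**Figure D5:**
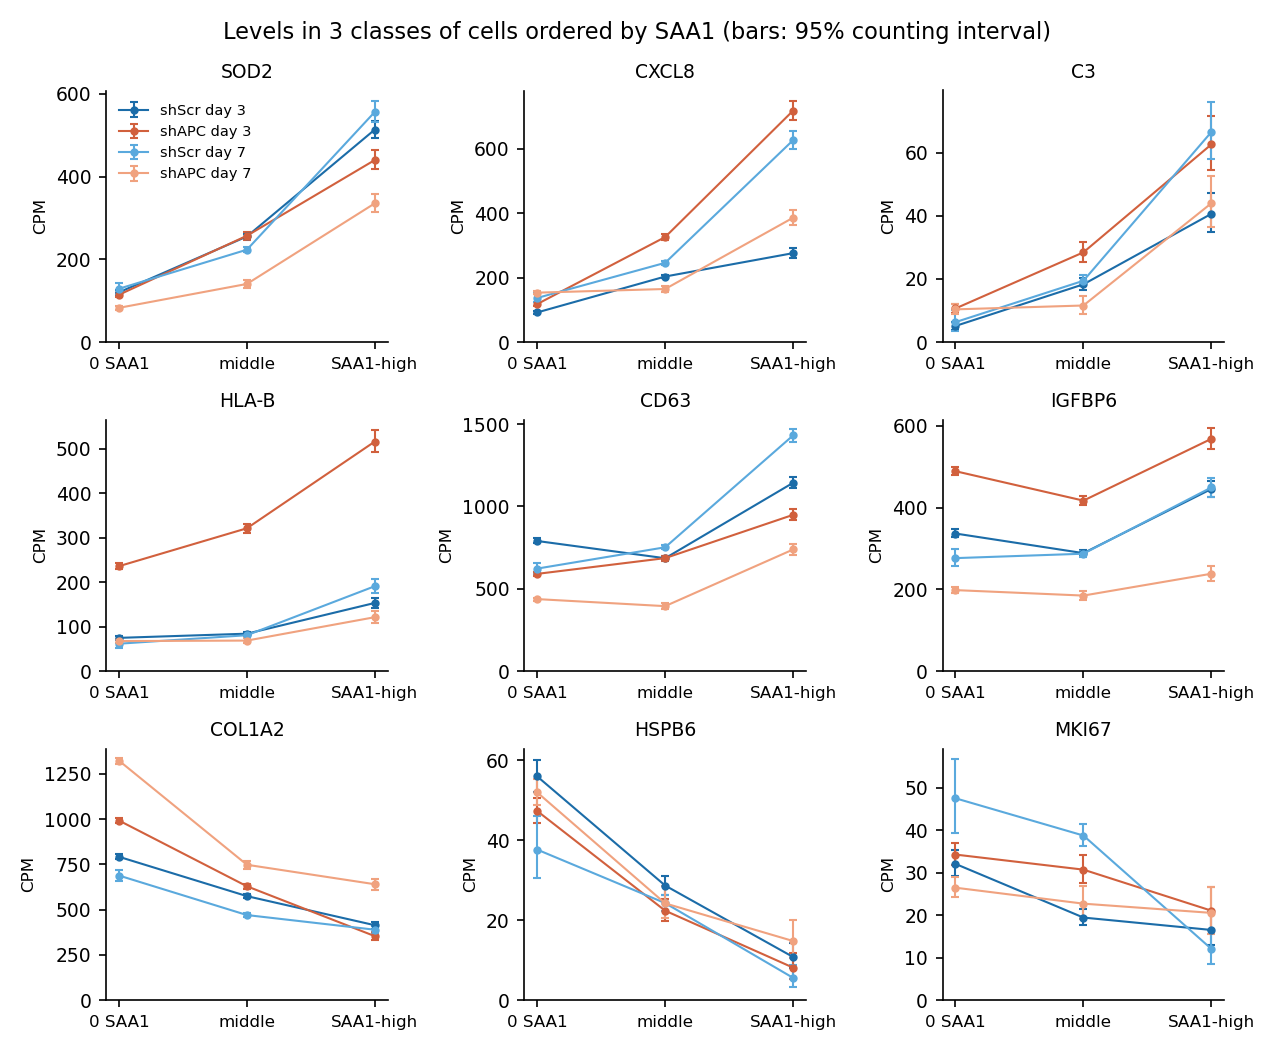
CPM of 9 genes in 0-SAA1, middle and SAA1-high cells, with 1 line per library and 95% counting intervals as bars. SOD2, CXCL8 and C3 climb and COL1A2, HSPB6 and MKI67 decline over the 3 classes in all 4 libraries, whereas IGFBP6 dips in the middle class in 3.

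SAA1-high cells also differed among themselves. Split at the median of their SAA1 share, the upper cells had more CD63 than the lower cells in all 4 libraries, by 0.37, 0.56, 0.94 and 0.71 on the log2 scale. IGFBP7 was higher in the upper cells by 0.44, 0.90, 1.09 and 0.94, and B2M by 0.36, 0.52, 0.89 and 0.55. CXCL8 did not follow. Its log2 ratio was -0.33 in shScr day 3, with an interval of -0.50 to -0.16, and 1.18 and 0.83 higher in shAPC day 3 and day 7. SOD2 differed by -0.09, 0.13, 0.22 and 0.59. TOP2A, of the mitotic topoisomerase, was lower in the upper cells of 3 libraries, with log2 ratios of -1.92, -1.16 and -2.24, and gave -0.03 in shScr day 7. These are differences within 1 library each, with no test.

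Whether the profile of SAA1-high cells depended on the shRNA or the day was asked with an interaction term for each. The shRNA term called 22 of 4559 genes (0.483%), 12 with a larger (0.263%) and 10 with a smaller (0.219%) log2 ratio under shAPC, and the day term called 14 (0.307%), 4 with a larger (0.0877%) and 10 with a smaller log2 ratio at day 7 (0.219%). At an unadjusted p under 0.05 there were 289 and 136. The comparison class differed as well, since 0-SAA1 cells were 97 of 942 cells in shScr day 7 and 637 of 924 in shAPC day 7. A dependence on shRNA or day cannot be told apart from this. The model has 1 residual degree of freedom, and DESeq2 called 1 gene for each term. Only TGFBI by shRNA and CRYAB by day were called by both tools.

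TGFBI, a secreted matrix protein induced by TGF-beta, had 154, 296, 93.9 and 414 CPM in 0-SAA1 and 406, 391, 376 and 479 CPM in SAA1-high cells. SAA1-high cells were thus at a like level in all 4 libraries, whereas 0-SAA1 cells were higher in shAPC. The log2 ratio to 0-SAA1 cells was 1.40 and 2.00 in shScr and 0.40 and 0.21 in shAPC, and the shRNA term was -1.56 (SE 0.23, adjusted p = 8.67e-08, edgeR). CRYAB, which encodes a small heat shock protein, had 63.6, 38.5, 87.9 and 60.9 CPM in 0-SAA1 and 53.0, 25.3, 336 and 102 CPM in SAA1-high cells. It was lower in SAA1-high cells at day 3 and higher at day 7 under both shRNAs, with a day term of 1.73 (SE 0.26, adjusted p = 5.76e-08, edgeR).

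For some other genes a single cell held much of the signal. The shRNA term of SAA2 was 1.98 (adjusted p = 0.0236, edgeR), and it turned to -0.10 with cells thinned to 5000 UMIs before choosing. AL603756.1, a gene known by a clone name with terms of 3.12 by shRNA and -3.12 by day, took 76.8% of its UMIs in SAA1-high cells of shAPC day 3 from 1 cell. CCND2, of cyclin D2, had 29.2, 31.4, 34.9 and 55.3 CPM in 0-SAA1 and 2.07, 24.7, 4.95 and 18.0 CPM in SAA1-high cells, and 67.1% of its 82 UMIs in shAPC day 3 came from 1 cell. Without that cell its log2 ratio there was -1.87 in place of -0.35. PDPN and AREG, of podoplanin and amphiregulin, rose in SAA1-high cells of all 4 libraries and less so in shAPC, with shRNA terms of -1.38 and -1.33.

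Between libraries the SAA1-high cells can only be set side by side, since each value is from 1 library and the SAA1 limit differed. The NF-kB list had a median log2 ratio to 0-SAA1 cells of 1.12, 2.41, 1.51 and 1.31, and its 26 genes summed to 2338, 5698, 3587 and 2589 CPM in SAA1-high cells. The sum was highest in shAPC day 3, but the median SAA1-high cell there, at 11 UMIs of the 20 tested genes after thinning to 5000, was not, and the 90th percentile was 43.4 UMIs against 25.8 to 27 in the other libraries. In 0-SAA1 cells the sums were 884, 1101, 1144 and 1003 CPM. In SAA1-high cells of shAPC relative to shScr, CXCL8 was 1.38 higher at day 3 (interval 1.28 to 1.48) and 0.70 lower at day 7 (log2 ratio -0.70, interval -0.81 to -0.59). HLA-B was 1.75 higher at day 3 and gave -0.65 at day 7, and in 0-SAA1 cells it gave 1.66 and 0.13. CD63 was lower in shAPC in both classes and at both days, with log2 ratios of -0.27 and -0.95 in SAA1-high and -0.42 and -0.51 in 0-SAA1 cells. COL1A2 gave -0.23 and 0.72 in SAA1-high and 0.33 and 0.94 in 0-SAA1 cells.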

How the data were processed

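Single-cell RNA was measured in 4 libraries, 1 per shRNA and day. The authors aligned the reads to hg38 with Cell Ranger and deposited matrices of raw UMI counts per gene (33538 genes) and barcode, with no normalization. Per the file headers the version was 3.0.2 for shScr and 3.0.0 for shAPC, so that version and shRNA cannot be told apart, and the annotation release is not given in the sources used here. The study's ComBat and imputation were not applied. Deposited totals were 40508318 to 53948307 UMIs per library.

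Barcodes with at least 2000 genes and under 5% mitochondrial UMIs were kept. No doublet caller was run, and leaving out the 5% deepest cells was an alternative. UMIs were summed per library and class and tested with edgeR 4.0.16 (TMM, quasi-likelihood, Benjamini-Hochberg) over genes of a mean of at least 20 CPM, with 3 residual degrees of freedom. The library block pairs the classes, since both come from 1 library. A symbol with several IDs stayed with the ID of most UMIs. Cells were thinned to 5000 UMIs and scored with scanpy 1.11.5. Intervals are exact (Poisson, Clopper-Pearson) at 95%, with 3 UMIs standing in for a count of 0. The tests were first tried on simulated data.

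Named genes are those of 22 lists that pass the filter, the 15 highest and 15 lowest called genes with the same sign in all 4 libraries, ranked by the smallest log2 ratio, and the 5 largest of each direction of each interaction term. IL6, SERPINA1, SERPINA3 and cell type markers under the filter are named with levels only and were chosen after their values were seen. Members and lists were chosen with earlier results of these data known. Alternatives were other scalings, tools, filters, shares of cells, comparison cells, thinning, cell cycle phase, gene sets and leaving out libraries. Leaving out barcodes shared between libraries, or SAA1-high cells with under 5 SAA1 UMIs, was chosen after seeing the data. Promoters (250 bases upstream, 27305 genes) are those of RefSeq, and coordinates of genes those of GENCODE on GRCh38. The result of 1 gene list, with its members, is not reported here.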

Additional observations from a re-analysis of the deposited data

Results flagged for a closer look

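An interaction term in edgeR called the difference between SAA1-high and 0-SAA1 cells as unlike between shRNAs or days for the 19 results given here. Of these, 17 were no longer called with DESeq2, 18 against all other cells and 18 with the term fitted alone. The SAA2 term changed sign with thinned cells. AL603756.1 and CCND2 drew most of their UMIs in SAA1-high cells of shAPC day 3 from 1 cell. With 1 library per group the terms have 1 residual degree of freedom, and no cause was tested. A larger log2 ratio under shAPC than under shScr was found for AL603756.1 (3.12), CCND2 (2.15), SAA2 (1.98), CCL20 (1.73) and SLC7A2 (1.60). A smaller one was found for TGFBI (-1.56), PDPN (-1.38), AREG (-1.33), G0S2 (-1.31) and MT1F (-1.22). A larger log2 ratio at day 7 than at day 3 was found for CRYAB (1.73), SOD3 (1.48), S100A4 (1.26) and ADAMTS1 (1.14). A smaller one was found for AL603756.1 (-3.12), PLAU (-1.82), MT1F (-1.65), MT1G (-1.64) and BIRC3 (-1.55).

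G0S2, an inhibitor of lipolysis, had 50.7, 38.3, 24.95 and 23.9 CPM in 0-SAA1 and 146, 139, 191 and 20.2 CPM in SAA1-high cells, and it was higher in SAA1-high cells in 3 libraries and not in shAPC day 7. S100A4 had 66.0, 54.1, 49.5 and 52.5 CPM in 0-SAA1 and 21.6, 19.3, 48.3 and 38.6 CPM in SAA1-high cells, so SAA1-high cells were lower in all 4 libraries and by more at day 3. PLAU, the urokinase gene, had 33.2 CPM in 0-SAA1 and 174 CPM in SAA1-high cells of shAPC day 3, and 16.6 and 16.9 CPM in those of shAPC day 7.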

How the results depend on the processing

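The 873 called genes became 565 with a mean of at least 50 CPM (2028 genes tested), 1706 with no filter (20884 tested), 53 with no replicate block, 527 with means over cells in limma, 575 with the top 20% of cells and 233 with cells thinned before choosing, and 436 to 732 without 1 library each. It was 436 without shScr day 3, 467 without shScr day 7 and 527 without shAPC day 3. The fit without the library block leaves the pairing of classes out of the model, and 28 of the 127 named called genes were still called in it. Under the other settings (other scalings, DESeq2, the top 5%, other comparison cells, G1 cells, without the deepest cells, and the like) the count stayed within 1.5 times. Not every one of the 127 genes passed the filter in each of the 22 settings. Tested in all 22 were 72 genes, of which 17 were called in all. Over the settings in which each was tested (at least 13), 25 were called throughout, 61 in all but the fit without the block, and 126 kept their direction. CDC20 turned to 0.10 with thinned cells.

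For the shRNA term, 22 calls became 40 with total UMIs and 1 each with DESeq2, at least 50 CPM, all other cells, thinned cells or this term alone. For the day term, 14 became 1 each with DESeq2 or at least 50 CPM, and 0 with all other cells, thinned cells or this term alone, with 141, 185 and 87 at an unadjusted p under 0.05. The term of SAA2 turned to -0.10 with thinned cells. The scalings moved the median of all genes by under 0.1.

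The S or G2M difference was -15.1 to -7.50 points without 1 library each, and 0 in shAPC day 3 against cells matched in depth. The SAA1 log2 ratio of shAPC to shScr at day 3 was -1.59 without mitochondrial and ribosomal protein genes, -1.83 with TMM, -1.20 with means over cells and -1.37 without the 5% deepest cells, and at day 7 -2.45 without the deepest. The ratio of day 7 to day 3 was 1.82 in shScr with means over cells, and in shAPC 1.10, 1.20, 0.77 and 0.54 in the order of the 4 settings at day 3. No SAA1 ratio changed direction. Depth limits genes under 20 CPM, which were not tested.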

Other observations

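The barcodes with under 2000 genes, which no comparison used, held 351, 207, 1658 and 554 barcodes. SAA1 was above the kept cells in all 4, with log2 ratios of 0.28, 1.63, 1.79 and 0.90 and counting intervals above 0. CD63 was above them as well, by 0.49, 0.37, 0.94 and 0.67, and IGFBP6 by 0.65, 0.39, 0.80 and 0.30. CXCL8 differed less, with -0.04, 0.17, 0.42 and -0.08. COL1A1 was under the kept cells in 3 libraries, with -0.98, -2.03 and -0.20, and above them in shScr day 7 with 0.29. The median depth of these barcodes was 1423, 1729, 665.5 and 966.5 UMIs.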
